A study of Mus musculus with 11 samples.

Results

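Brain capillary endothelial cells line the finest branches of the cerebral vasculature, between the arterioles and the venules. They were picked out of single-cell libraries of mouse brain microvessels by the UMI counts of a set of 25 genes, a UMI being a tag that marks one captured RNA molecule. Barcodes with fewer than 500 genes or over 10% of UMIs from mitochondrial genes were dropped. A remaining barcode was a member when it held at least 4 UMIs of the endothelial genes Cldn5, Flt1 and Itm2a together, and at least 3 of the capillary genes Mfsd2a, Cxcl12 and Hmcn1 together. It could hold at most 2 UMIs of P2ry12, Cx3cr1, Vtn and Myh11, which mark microglia and mural cells, and none of the arterial genes Gkn3, Bmx and Sema3g or of the venous genes Cyp2e1, Ndnf, Unc13c, Il1r1, Adgrg6 and Col6a6. At most 1 UMI was allowed for Ifit1, Ifit2, Ifit3, Rsad2 and Isg15 together, and at most 1 for Plvap. In all, 3436 barcodes met this rule, which is 5.58% of the 61625 barcodes kept after quality control and 8.90% of the 38627 endothelial-gated ones.

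The libraries came from 11 mice, 6 R182C-TgN3 (CADASIL) mice and 5 WT-TgN3 (control) mice. Both groups carry a human NOTCH3 transgene beside their own Notch3, with the R182C change in the first group and the wild-type sequence in the second, so the contrast is between transgenes and not against mice without one; the promoter of the transgene is not given in the sources used here. The R182C-TgN3 mice comprised 3 of 9 months (2 females, 1 male) and 3 of 6 months (2 females, 1 male), and the WT-TgN3 mice 2 of 9 months (1 female, 1 male) and 3 of 6 months (2 females, 1 male), all untreated. Microvessel fragments were pulled down with antibody to CD31, an endothelial surface protein, digested to single cells and run in 4 batches, none of which held both ages, so age and batch cannot be told apart.

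Capillary endothelial cells carry the blood-brain barrier. Tight junctions seal them to each other, Mfsd2a, a lipid carrier, keeps vesicular transport low, and dedicated carriers move glucose, lactate, amino acids and hormones across, while ABC pumps return drugs to the blood. Along the vessel the endothelium changes gradually from an arterial to a venous programme, and capillaries lie between them without a sharp border.

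The capillary-gated cells numbered 141 to 643 per mouse and gave 466541 to 2273762 UMIs per mouse, out of libraries of 17550806 to 64215050 UMIs. Their median depth per cell was 2331.5 to 4530 UMIs and lay below that of the other endothelial-gated cells (3282 to 7843.5 UMIs) in 11 of 11 mice. Levels are given as CPM, the counts of a gene per 1000000 UMIs of the gated cells of a mouse. In all, 3 barcodes occurred in the capillary-gated cells of 2 libraries, which is 0.0874% of them. Marker lists of other cell types were low but not absent: the 7 microglia markers summed to 304 to 905 CPM, the 7 pericyte markers to 10.9 to 101 CPM and the 6 smooth muscle markers to 13.9 to 109 CPM. Erythroid markers summed to 109 to 11940 CPM, led by the haemoglobin gene Hbb-bs. The 3 arterial and 6 venous genes of the rule were at 0 by construction, and 3 of 5 neutrophil or monocyte markers were at 0 in every mouse. In summed counts, fewer cells of a type and less RNA per cell cannot be told apart. Choroid plexus markers, led by Ttr, summed to 32.4 to 356 CPM in R182C-TgN3 mice and to 171, 327, 440, 1687 and 12773 CPM in WT-TgN3 mice, with WT-TgN3 5 and WT-TgN3 1 far above the rest.

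The 3 capillary genes that chose the cells were not equally deep. Cxcl12, a chemokine, stood at 3609 ± 626 CPM (SD, n = 11 mice), Hmcn1, which encodes the matrix protein hemicentin 1, at 1065 ± 197 CPM, and Mfsd2a at 171 ± 36.0 CPM. Of the 3436 cells, 2256 (65.7%) held 10 or more UMIs of the 3 genes, and 195 sat at the threshold of 3. Among barcodes that met every other clause, 348, 246 and 203 held 0, 1 and 2 UMIs of them. Most of the 35191 other endothelial-gated barcodes thus failed the arterial, venous, interferon or Plvap clause. The share of 8.90% is therefore that of the gate and not of capillary cells in the endothelium. Just inside the threshold Cxcl12 stood at 823 CPM and Hmcn1 at 411 CPM; among the 203 barcodes just outside it, with 2 UMIs, they stood at 584 and 330 CPM. The rule did not use Slc16a1, the lactate carrier MCT1, or Lrrn3, a leucine-rich repeat membrane protein. Slc16a1 stood at 264 CPM just inside and 216 CPM just outside, and Lrrn3 at 101 and 82.4 CPM, so both sides of the threshold carried both markers.

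Both unused markers were present in every mouse. Slc16a1 ranged from 260 to 474 CPM with a median of 320 CPM, and Lrrn3 from 103 to 258 CPM with a median of 172 CPM. When every cell was thinned to 2000 UMIs, which left out 580 shallower cells, 38.0% of capillary-gated cells held a UMI of Slc16a1 and 24.6% a UMI of Lrrn3. In microglia-gated cells, which should lack both, the shares at the same depth were 4.96% and 0.88%. Without thinning the shares were 49.1% and 33.9% in capillary-gated cells and 11.8% and 2.35% in microglia-gated cells. Both markers that the rule did not read were thus detected well above the level in a cell type that should lack them. That comparison cannot set capillary cells apart from other endothelial cells. In the other endothelial-gated cells, 15.7% held a UMI of Lrrn3 after thinning and 31.5% without. The capillary-gated cells were taken by a gate along a gradient and not as a separate cluster.

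The position of the gate on that gradient was read by setting the cells beside 2576 arterial-gated and 7828 venous-side-gated endothelial cells of the same mice, which were chosen by at least 2 UMIs of the arterial or venous genes. These ratios are descriptions with no test, since the cells were chosen by genes of the same axis. Slc16a1 was 4.86-fold the arterial level and 0.77-fold the venous-side level. Tfrc, the transferrin receptor, stood at 339 ± 69.1 CPM against 88.7 ± 13.6 CPM in arterial-gated and 461 ± 69.9 CPM in venous-side-gated cells. Car4, a carbonic anhydrase on the endothelial surface, showed the same order with 463 ± 33.7, 27.2 ± 10.2 and 740 ± 76.9 CPM. For these 3 genes the capillary-gated value lay above the arterial one in 11 of 11 mice and below the venous-side one in 11 of 11 mice.

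Arterial and venous genes lay at intermediate levels. Alpl, alkaline phosphatase, was at 163 ± 24.4 CPM, 0.40-fold the arterial and 4.85-fold the venous-side level. Efnb2, the arterial ephrin ligand, was at 65.7 ± 13.1 CPM, against 179 ± 34.2 CPM in arterial-gated and 18.8 ± 2.76 CPM in venous-side-gated cells. Nr2f2, the venous transcription factor COUP-TFII, was at 30.0 ± 9.69 CPM, against 8.23 ± 6.71 and 176 ± 26.7 CPM. Slc38a5, a glutamine carrier, was at 48.8 ± 11.5 CPM and thus 9.25-fold the arterial and 0.19-fold the venous-side level. Lrrn3 departed from this graded order. It stood at 173 ± 50.9 CPM, 1.96-fold both neighbours, and was above both in 11 of 11 mice. Vegfc, a lymphatic and arterial growth factor, and Mgp, a matrix calcification inhibitor, were instead almost confined to the arterial side, at 0.05-fold and 0.02-fold the arterial level.

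**Figure D1:**
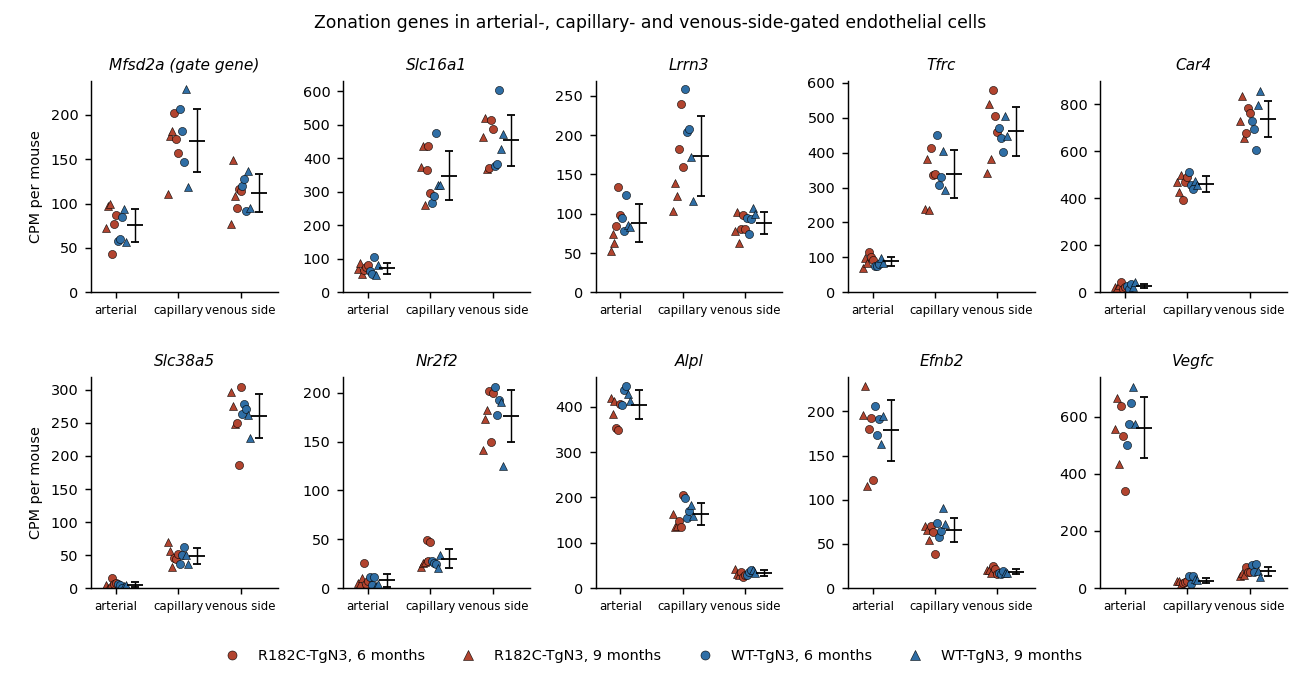
CPM per mouse (vertical axes, each from 0) of 10 zonation genes in arterial-, capillary- and venous-side-gated endothelial cells of the same 11 mice. Each symbol is a mouse, coloured by genotype and shaped by age, and the bars give mean ± SD; Slc16a1, Tfrc and Car4 climb from arterial to venous side, Alpl and Efnb2 descend, and Lrrn3 peaks in the capillary-gated cells, where Mfsd2a was part of the rule.

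Against all other endothelial-gated cells, the capillary-gated cells differed in few genes by a wide margin. Of these 35191 other cells, 2576 were arterial-gated and 7828 venous-side-gated, so most met neither gate. Capillary cells that failed the rule may be among them, and a ratio near 1 does not compare capillary with non-capillary endothelium. Among 6945 genes outside the rule with at least 20 CPM, the median ratio was 0.98, 20 genes were at least 2-fold higher and 155 at most 0.5-fold. In 11 of 11 mice, 307 genes (4.42%) were higher and 797 (11.5%) lower. Some of the highest ratios came from single mice. The pituitary hormone gene Gh stood at 6364 CPM in WT-TgN3 5 and at 0 in the other 10 mice, and Igkc, Fabp4, H2-Aa and Cd74, genes of plasma cells, fat handling and antigen presentation, were higher in only 3 to 7 of 11 mice. The genes that led in every mouse were Gm9946 (209 ± 49.9 CPM, 2.78-fold), Pmaip1, a pro-apoptotic BH3 gene (47.3 ± 16.1 CPM, 2.74-fold), Lrrn3 (2.12-fold), Stra6, the receptor for retinol-binding protein (78.8 ± 25.3 CPM, 2.10-fold), and Dnah3, a dynein chain (50.9 ± 17.1 CPM, 2.09-fold).

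At the low end stood genes of large vessels, inflamed venules and fenestrated vessels. Fbln5, an elastic fibre gene, was at 0.73 CPM against 35.7 CPM in the other endothelial-gated cells. Vcam1, the leukocyte adhesion molecule, was at 11.9 ± 11.3 CPM and 0.05-fold, and Icam1, a further one, at 49.0 ± 22.0 CPM and 0.18-fold. Esm1 and Igfbp3, which are high in fenestrated or growing vessels, were 0.03-fold and 0.06-fold, and Cxcl10, an interferon-induced chemokine, 0.07-fold. All of these were lower in 11 of 11 mice. In the leukocyte adhesion and inflammation list 11 of 16 members outside the rule at 20 CPM or more were lower in every mouse and 0 were higher, with a median ratio of 0.54; Il1r1, a further member, was held at 0 by the rule. In the interferon list 10 of 18 members outside the rule were lower in every mouse and 0 higher, with a median of 0.73. The other 5 members were gate genes. Both counts and the ratios of the genes named above are descriptions of the gate, with no test. The rule limited arterial, venous, interferon and Plvap UMIs in the capillary-gated cells and not in the cells set beside them.

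Carrier genes were high. Bsg, the chaperone of lactate carriers, was the fourth highest gene at 10186 ± 826 CPM, 1.29-fold the other endothelial-gated cells. Slc2a1, the glucose carrier GLUT1, stood at 949 ± 108 CPM and 1.00-fold. The large amino acid carrier Slc7a5 was at 464 ± 56.8 CPM and 1.41-fold, its partner Slc3a2 at 345 ± 40.1 CPM and 1.19-fold, and Slc38a3, a glutamine carrier, at 128 ± 21.3 CPM and 1.18-fold, each higher in 11 of 11 mice. In this list 5 of 12 members at 20 CPM or more were higher in every mouse and 2 lower, with a median ratio of 1.18. In the organic ion, hormone, vitamin and metal carrier list 2 of 16 were higher and 4 lower (median 0.99). In the ABC efflux list 0 of 7 were higher and 2 lower (median 0.98). Over all 6945 genes compared, 4.42% were higher in every mouse and 11.5% lower. Slco1c1, which carries thyroid hormone, was at 1412 ± 162 CPM and 1.20-fold. Slco1a4, an organic anion carrier, was at 2338 ± 486 CPM. The efflux pumps Abcb1a (1438 ± 178 CPM), Abcg2 (871 ± 98.5 CPM) and Abcc4 (485 ± 93.6 CPM) were at 0.98-fold, 1.09-fold and 0.88-fold.

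Receptors that take proteins across by vesicles were likewise present. Igf1r, the IGF1 receptor, stood at 2172 ± 315 CPM and 1.24-fold, and Fcgrt, the neonatal Fc receptor, at 304 ± 29.0 CPM and 1.33-fold, both higher in 11 of 11 mice. Caveolar genes were slightly lower: Cavin2 was at 340 ± 54.9 CPM (0.83-fold, lower in 11 of 11 mice) and Cav1 at 323 ± 41.1 CPM (0.92-fold, lower in 10 of 11). Plvap, a diaphragm gene of fenestrae, was held down by the rule. Among junction genes, Cldn5, a gate gene, was at 5121 ± 462 CPM, Tjp1 (ZO-1) at 1133 ± 140 CPM and 0.85-fold, Cdh5 (VE-cadherin) at 561 ± 98.6 CPM and 1.00-fold, and Ocln (occludin) at 252 ± 29.9 CPM and 1.03-fold.

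Genes of barrier transcription and signalling were read in the same way. Lef1, a Wnt transcription factor, was at 872 ± 108 CPM and Apcdd1, a Wnt target, at 292 ± 42.4 CPM, 3.15-fold the arterial level. Foxq1 (394 ± 34.7 CPM, 1.15-fold) and Sox17 (321 ± 43.7 CPM, 1.17-fold) were higher than in the other endothelial-gated cells in 11 of 11 mice. In the Wnt and barrier transcription list 4 of 26 members were higher in every mouse and 6 lower, with a median ratio of 0.96. Over all genes compared these shares were 4.42% and 11.5%. The Notch receptors Notch1 (160 ± 26.8 CPM) and Notch4 (49.0 ± 7.39 CPM) were present, and the ligands Jag1 (31.5 ± 7.39 CPM), Jag2 (116 ± 20.2 CPM) and Dll4 (66.1 ± 12.6 CPM) stood at 0.20-fold, 0.41-fold and 0.58-fold the arterial level. Notch3 and the human NOTCH3 transgene, which mural cells express, stood at 0 to 5.71 CPM and 0 to 4.08 CPM. After thinning, 0.25% of capillary-gated cells held a UMI of each, against 0.52% and 0.25% in microglia-gated cells, which is at or below that background. The transgene count cannot tell the genotypes apart, as both groups carry it and the change is not read by gene counts. Spock2, a matrix proteoglycan, was the most abundant matrix gene named here, with 2303 ± 270 CPM and 1.30-fold, while the basement membrane collagens Col4a1 (420 ± 82.7 CPM) and Col4a2 (294 ± 69.9 CPM) were at 1.00-fold and 1.02-fold.

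From cell to cell, haemoglobin genes had the highest variance to mean ratios, and several immediate-early genes were also high. In cells thinned to 2000 UMIs, a variance to mean ratio of 1 is what counting alone would give, and the median over 5765 genes was 1.04 (median over mice for each gene). Hbb-bs reached 433, with a range of 1.47 to 723 over mice. Gm42418, a predicted gene, reached 19.9 and the long non-coding RNA Malat1 6.91. The transcription factors Fos and Jun, which switch on within minutes of stimulation and of tissue digestion, reached 8.75 (7.08 to 11.2) and 7.20 (5.44 to 10.4). Egr1 reached 5.09, Junb 4.98, Jund 4.06, Atf3 3.76 and Fosb 3.46, all of the same class. Klf2, a flow-induced factor, reached 3.72. The gate gene Cxcl12 itself varied at 4.05 (3.28 to 4.80) and Bsg at 4.09 (3.37 to 4.84), and the pericyte gene Rgs5 at 5.10, at only 0.0735 UMIs per cell.

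The share of capillary-gated cells among endothelial-gated barcodes did not separate the genotypes. It was 4.86% at the lowest, 9.36% at the median and 10.7% at the highest in the R182C-TgN3 mice, and 8.55%, 9.71%, 11.5%, 5.18% and 8.47% in WT-TgN3 1 to 5. The groups overlapped over nearly their whole range. The means were 8.55% ± 2.40 (SD, n = 6) and 8.69% ± 2.32 (SD, n = 5), a difference of -0.14 percentage points (two-sided exact permutation test over 462 splits, p = 0.93). With every barcode thinned to 3000 UMIs before the rule was applied, the means were 12.2% ± 2.94 and 10.3% ± 3.16 and the sign turned, with p = 0.31 in the same exact permutation test. In batch 1 alone (2 against 2 mice) R182C-TgN3 mice were higher by 1.65 points, and in batch 3 alone lower, with a difference of -1.76 points; the smallest p that 2 against 2 allows is 0.33.

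The share was also read by sex, with no test. The 4 males had shares of 4.86%, 5.18%, 6.40% and 9.71%, and the 7 females 8.47% to 11.5% with a median of 9.87%. The median depth per capillary-gated cell was 3312 to 4530 UMIs in males and 2331.5 to 3526 in females, which overlap. After thinning to 3000 UMIs, which left out the shallower barcodes, the means were 11.1% ± 2.76 in males and 11.4% ± 3.42 in females. The part of depth in these values was not tested.

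**Figure D2:**
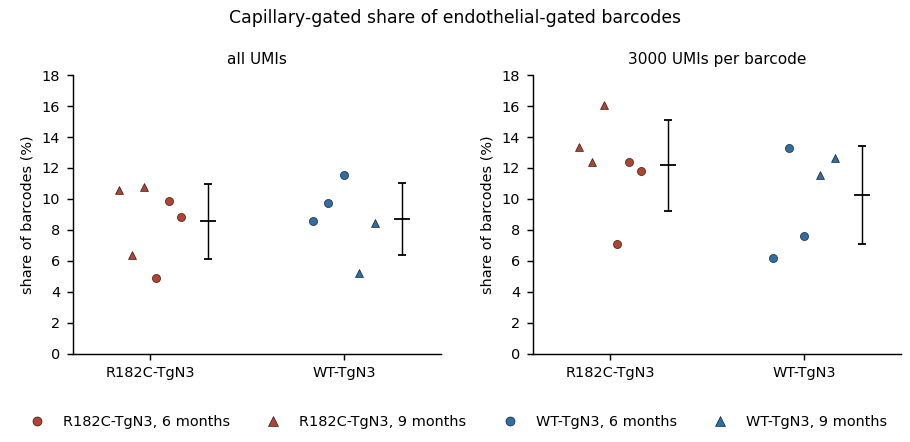
Share of capillary-gated cells among endothelial-gated barcodes (vertical axes, percent) in the 6 R182C-TgN3 and 5 WT-TgN3 mice. The left panel uses all UMIs, and the right panel only barcodes of at least 3000 UMIs, thinned to 3000. Each symbol is a mouse and the bars give mean ± SD; the genotypes overlap in both panels (p = 0.93 and 0.31, exact permutation test).

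The genotype comparison of the capillary transcriptome, which asks whether the mutant transgene alters these cells, found 1 gene. Of 8356 genes tested on UMI counts summed per mouse (edgeR quasi-likelihood test, Benjamini-Hochberg adjustment over all genes), 1 passed an adjusted p of 0.05, which is 0.012% of them, and 235 (2.81%) had an unadjusted p under 0.05. That gene was Trpm3, a calcium-permeable cation channel on chromosome 19 (mm10, chr19:22139046-22995410), which is abundant in the choroid plexus. It was at 3.26, 4.08 and 8.57 CPM at the lowest, median and highest of the R182C-TgN3 mice, and at 77.5, 10.8, 16.9, 20.3 and 81.0 CPM in WT-TgN3 1 to 5. All R182C-TgN3 mice lay below all WT-TgN3 mice, as did 17 genes (0.203%) of those tested. Its log2 fold change was -3.14 (SE 0.52, edgeR adjusted p = 0.038).

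The 2 control mice with the highest Trpm3, WT-TgN3 1 and 5, were those with the highest choroid plexus sums. Without both, which was chosen after seeing the data, the log2 fold change was -1.75 with an edgeR adjusted p of 0.65 and no gene passed (272 had an unadjusted p under 0.05). The other genes of the choroid plexus epithelium with the lowest p went the same way. Ttr, the thyroid hormone carrier of the cerebrospinal fluid, was at 30.9, 124 and 351 CPM at the lowest, median and highest of the R182C-TgN3 mice, and at 1642.5, 164, 316, 427 and 12600.5 CPM in WT-TgN3 1 to 5. Enpp2, autotaxin, was at 45.5, 57.0 and 75.1 CPM against 279, 62.3, 94.8, 68.0 and 1152 CPM. Both groups overlapped for both genes, with log2 fold changes of -4.26 (SE 0.84) and -2.45 (SE 0.55) and edgeR adjusted p of 0.21 and 0.58. The call was also lost without R182C-TgN3 2, 4 or 5 or WT-TgN3 1 alone (edgeR adjusted p = 0.093, 0.084, 0.12 and 0.19), with log2 fold changes of -3.25 to -2.86, and with batch as a covariate (adjusted p = 0.077). It held without WT-TgN3 2, 3 or 4 alone (edgeR adjusted p = 0.0019, 0.011 and 0.038), and without R182C-TgN3 1, 3 or 6 or WT-TgN3 5 the gene fell under the filter on low counts and was not tested. The part of choroid plexus RNA in the Trpm3 result was not tested. In the other endothelial-gated cells of the same mice, Trpm3 had a log2 fold change of -0.43 and in microglia-gated cells of 1.30, neither past the threshold, and 0 of 13251 and 0 of 11037 genes passed there.

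**Figure D3:**
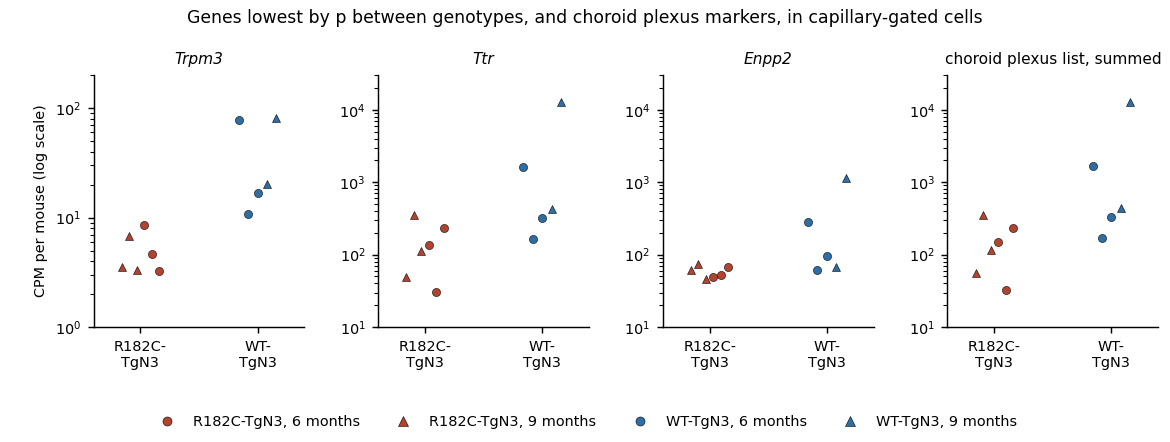
CPM per mouse on a log scale (vertical axes) of Trpm3, Ttr, Enpp2 and the sum of the 5 choroid plexus markers in capillary-gated cells of the 6 R182C-TgN3 and 5 WT-TgN3 mice. Each symbol is a mouse; WT-TgN3 5 (9 months) and WT-TgN3 1 (6 months) are the highest mice in all 4 panels, and for Trpm3 alone the genotypes do not overlap.

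The next genes by p did not pass. Msra, a methionine sulfoxide reductase, was at 20.5 ± 3.79 CPM in R182C-TgN3 (n = 6) and 36.0 ± 6.43 CPM in WT-TgN3 mice (n = 5), without overlap, and Prdm16, a transcription factor of arterial endothelium and fat, at 66.5 ± 8.15 and 93.4 ± 11.5 CPM, also without overlap. Ston1, an endocytic adaptor, was at 32.8 ± 6.55 and 19.6 ± 3.80 CPM without overlap, and Pycard, the inflammasome adaptor ASC, at 41.1 ± 6.77 and 25.1 ± 8.18 CPM with overlap. Their edgeR adjusted p was 0.83 for Msra and 0.999 for the others. Groups failed to overlap for 21 of 8356 genes (0.251%).

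The capillary markers and barrier genes lay within the spread of the mice. Mfsd2a was at 166 ± 31.0 CPM in R182C-TgN3 and 176 ± 44.4 CPM in WT-TgN3 mice, with a log2 fold change of -0.05 (SE 0.17). Cxcl12 had 3847 ± 557 and 3323.5 ± 637 CPM with a log2 fold change of 0.26 (SE 0.15). Slc16a1 differed by 0.15 (SE 0.14), Lrrn3 by -0.26 (SE 0.19) and Hmcn1 by -0.01 (SE 0.13) on the log2 scale. Slc2a1 had 971 ± 114 and 922 ± 107 CPM, Abcb1a 1426 ± 224 and 1453 ± 128 CPM, and Cldn5 5171 ± 568 and 5061 ± 349 CPM. Their standard errors, 0.12 on the log2 scale for each, set the size of difference that 11 mice could show. None of these genes passed the threshold (edgeR adjusted p = 0.999 for all).

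In the lists the counts were as follows, beside 4294 of 8356 tested genes (51.4%) with a positive fold change and a median of 0.01 over all genes. Among tight and adherens junction genes 12 of 16 were higher and 0 called, with a median log2 fold change of 0.04. Among glucose, lactate and amino acid carriers 10 of 13 were higher (median 0.12), and among ABC efflux genes 6 of 9 (median 0.06). The Wnt and barrier transcription list had 13 of 26 higher (median 0.01) and the Notch list 11 of 19 (median 0.03). In the caveolae list 4 of 13 were higher (median -0.03) and in the endoplasmic reticulum stress list 5 of 16 (median -0.03). Nuclear oxidative phosphorylation genes, subunits of the respiratory chain, were higher in 58 of 74 (median 0.06), with Ndufb6 at 59.6 ± 8.26 against 43.4 ± 10.6 CPM as the member with the largest log2 fold change, 0.47 (SE 0.17). The immediate-early and dissociation stress list was higher in 23 of 26 (median 0.10). No member of any list passed the threshold, and lists share genes that vary together between mice.

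Neither interaction gave a call by the edgeR test without batch terms. Of 9160 genes, 0 had a genotype difference that differed between 6 and 9 months (302, or 3.3%, at an unadjusted p under 0.05), and of 13137 genes 0 had one that differed between capillary-gated and other endothelial-gated cells of the same mice (641, or 4.88%, at an unadjusted p under 0.05; edgeR quasi-likelihood test for both). DESeq2 also called 0 for the age interaction and limma 0 for the cell type interaction. With batch by cell type terms the edgeR test called 36 genes for the cell type interaction, among them Hbb-bs (log2 difference -1.41), Ttr (-1.86), Enpp2 (-1.49), Dcn, a fibroblast gene (6.53), and Trpm3 (-2.16, edgeR adjusted p = 2.56e-10). That fit left 6 residual degrees of freedom and set the spread of the genes to the common trend (infinite prior degrees of freedom at the median). When limma was run with batch as a covariate on the differences within each mouse, chosen after seeing the data, 0 genes passed (582 at an unadjusted p under 0.05), and Trpm3 had a log2 difference of -1.57 (limma adjusted p = 0.995).

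**Figure D4:**
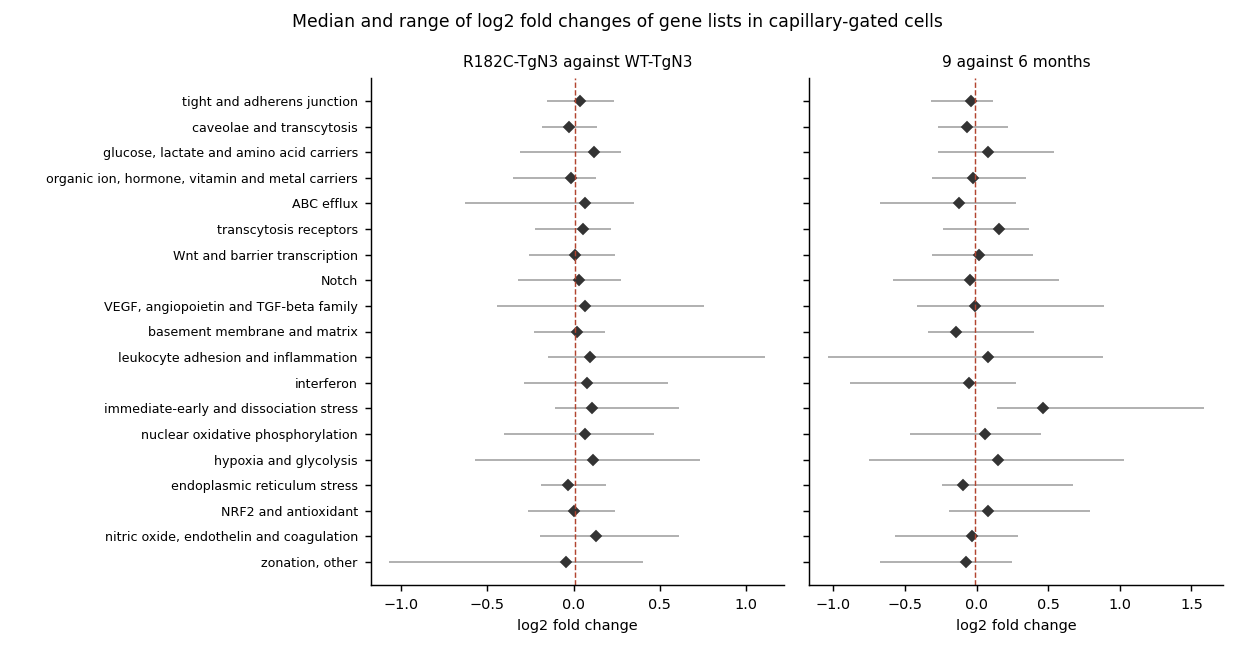
Log2 fold changes in capillary-gated cells for 19 gene lists, R182C-TgN3 against WT-TgN3 (left) and 9 against 6 months (right). Diamonds give the median of a list, grey lines its lowest to highest member, and the dashed line the median of all genes tested; in the age panel the immediate-early and dissociation stress list lies at 0.47 with its lowest member at 0.14, while the other medians lie between -0.14 and 0.15.

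Age gave more calls than genotype, in a contrast that cannot be told apart from batch. Between 5 mice of 9 months and 6 of 6 months, 35 of 8841 genes passed (0.396%), 18 higher (0.204%) and 17 lower (0.192%) at 9 months (edgeR quasi-likelihood test with genotype as a covariate). The higher genes were led by heat-shock chaperones, which refold proteins and are induced by heat and by handling of tissue. Hspa1a was at 47.9, 104 and 141 CPM at the lowest, median and highest of the 6-month mice, and at 552, 146 and 273 CPM in R182C-TgN3 1 to 3 and 259 and 377 CPM in WT-TgN3 4 and 5, all of 9 months. The groups did not overlap, which held for 54 of the genes tested in that direction (0.611%) and for 100 in either (1.13%). Its log2 fold change was 1.59 (SE 0.27, edgeR adjusted p = 0.011).

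The other chaperones followed. Hsph1, a co-chaperone of the HSP70 class, was at 6.89, 10.4 and 17.1 CPM at the lowest, median and highest at 6 months, and at 39.6, 17.7, 29.7, 39.1 and 41.6 CPM in the 9-month mice in the same order, with a log2 fold change of 1.67 (SE 0.24, edgeR adjusted p = 0.0054). Hspa8, the constitutive HSC70, was at 460, 475 and 521 CPM against 899, 688, 780, 914 and 806 CPM, with 0.76 (SE 0.11, edgeR adjusted p = 0.0054). Neither gene overlapped between ages. Hsp90aa1, the inducible HSP90, rose from 302 ± 23.0 to 469 ± 88.2 CPM (log2 fold change 0.63) and Hspa1b from 43.4 ± 23.9 to 132 ± 65.9 CPM (1.52), with edgeR adjusted p of 0.032 and 0.039. Hspa1a and Hspa1b are near-identical copies, so their counts are uncertain as separate genes. Dnajb1, the HSP40 partner, had a log2 fold change of 0.64 and did not pass (edgeR adjusted p = 0.056).

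The heat-shock element is the site that the transcription factor HSF1 reads. Its core, searched as GAANNTTC, which reads the same on both strands, occurs in 7.86% of 32851 promoter windows of 300 bases (RefSeq, GRCm38.p6), and in the windows of Hspa1a, Hspa1b and Hsph1. The Hspa1a and Hspa1b windows differ at 4 of 300 positions, so the former stands for both. The 250 bases upstream of the Hspa1a start (chr17:34972157-34972406, minus strand) and 30 bases just after the start of Hsph1 (chr5:149636277-149636306, minus strand) are shown because these genes had the largest rises among the chaperones, with the matched core in capitals.
Hspa1a: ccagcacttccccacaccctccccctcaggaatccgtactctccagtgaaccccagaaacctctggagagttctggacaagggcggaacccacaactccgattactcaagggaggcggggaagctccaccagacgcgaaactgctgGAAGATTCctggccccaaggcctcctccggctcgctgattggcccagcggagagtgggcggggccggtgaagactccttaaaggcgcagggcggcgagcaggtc
Hsph1: tgcagattctgGAAAGTTCtcctcagtagg
Both windows of Dnajb1 hold no match, and Hspa8, Hsp90aa1 and Egr1 had no window to search. The 2 windows of Hsph1 overlap and share the site shown. A match describes letters in a window, and no binding was measured.

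Immediate-early genes lay in the same direction. In the fixed list of immediate-early and dissociation stress genes, 26 of 26 tested members were higher at 9 months and 5 passed (Hspa8, Hspa1a, Hspa1b, Hsp90aa1 and Egr1), with a median log2 fold change of 0.47, beside 48.2% higher and a median of -0.01 over the 8841 genes tested. Egr1, a growth-factor-induced transcription factor, was at 531, 721 and 906 CPM at the lowest, median and highest at 6 months and at 1371, 1654, 849, 878 and 1713 CPM at 9 months, with overlap and a log2 fold change of 0.82 (edgeR adjusted p = 0.050, just under the threshold). Fos (0.48), Jun (0.43), Atf3 (0.68) and Zfp36 (0.76) had positive log2 fold changes that did not pass. Outside this list, Tmem251 (1.38) and Rnaset2a (1.20) had the largest called rises after Hsph1, Hspa1a and Hspa1b (edgeR adjusted p = 0.025 and 0.028). Other genes that rose were Ankrd37, a hypoxia-responsive gene (1.03), Noct, a circadian phosphatase (1.02), Maff, a small MAF factor (0.88), Apold1, an endothelial immediate-early gene (0.82), and Acer2, a ceramidase (0.71). In the hypoxia and glycolysis list 17 of 24 were higher, beside the same 48.2%, and 1 passed, Ankrd37.

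The same genes were read in other cells of the same mice. In the other endothelial-gated cells of the same mice the log2 fold changes were 1.25 for Hspa1a, 0.95 for Hsph1, 0.61 for Hspa8 and 1.06 for Ankrd37, and in microglia-gated cells 1.62, 1.01, 0.39 and 0.65. For Tmem251 they were 0.36 and 0.28, and for Rnaset2a 1.26 and 0.98. Of these, Hspa8 and Rnaset2a passed in the other endothelial-gated cells (edgeR adjusted p = 0.048 and 0.040). The difference between cell types was not tested. The median depth was 3413 to 4530 UMIs per capillary-gated cell at 9 months and 2331.5 to 3765 at 6 months, and the part of depth, batch or tissue handling was not tested.

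Of the genes that fell at 9 months, Lrrn3 is a capillary marker. It was at 160, 206 and 258 CPM at the lowest, median and highest at 6 months and at 103, 139, 122, 172 and 116 CPM at 9 months, with overlap and a log2 fold change of -0.68 (SE 0.14, edgeR adjusted p = 0.028). In the other endothelial-gated cells its log2 fold change was -0.08. The other markers Mfsd2a (-0.15), Cxcl12 (0.04), Hmcn1 (-0.17) and Slc16a1 (-0.08) did not pass. Il31ra, a cytokine receptor subunit, fell from 253 ± 116 CPM to 77.1 ± 41.3 CPM (log2 fold change -1.86, edgeR adjusted p = 0.0064). It fell and passed as well in the other endothelial-gated cells (-1.79, edgeR adjusted p = 0.040) and in microglia-gated cells (-2.07, edgeR adjusted p = 0.028). Grik1, a kainate receptor subunit, fell from 151 ± 80.7 to 34.6 ± 29.1 CPM (-2.10).

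The largest falls were of low genes that are known from neurons, photoreceptors or pigment cells. Pde6a, a rod phosphodiesterase, was at 15.5, 30.1 and 58.0 CPM at the lowest, median and highest at 6 months and at 5.72, 2.73, 8.57, 2.89 and 0.73 CPM at 9 months, without overlap (log2 fold change -2.87, edgeR adjusted p = 0.0054). Cntnap2, a neuronal adhesion gene, fell from 22.3 ± 12.4 to 2.82 ± 1.59 CPM (-2.77), Lsamp from 20.4 ± 9.83 to 3.39 ± 2.46 CPM (-2.55), Mc1r, the melanocortin receptor, from 15.3 ± 8.60 to 1.17 ± 1.15 CPM (-3.18), and Kctd16, a GABA-B receptor subunit, from 21.6 ± 12.9 to 2.68 ± 2.45 CPM (-2.72). In microglia-gated cells the log2 fold changes of Pde6a, Cntnap2, Lsamp, Mc1r and Kctd16 were -2.52, -1.21, 0.67, -3.08 and -1.08, and Mc1r and Kctd16 passed there (edgeR adjusted p = 0.032 for both). In the other endothelial-gated cells they were -2.89, -1.89, -1.34, -2.56 and -2.62, and Mc1r passed (edgeR adjusted p = 0.039). Neuron markers summed to 2.14 to 13.7 CPM at 6 months and to 0 to 45.9 CPM at 9 months.

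Markers of smooth muscle, erythroid, choroid plexus and fibroblast cells were read in the same contrast, and 0 of those tested passed. Smooth muscle markers were higher at 9 months in 0 of 5 tested, with a median log2 fold change of -0.98, and summed to 13.9 to 109 CPM at 6 months and 13.9 to 63.7 CPM at 9 months. Erythroid markers were higher in 4 of 4, with a median of 0.68, and summed to 122 to 11940 CPM and 109 to 8216 CPM. For the choroid plexus 1 marker, Ttr, was tested, with a log2 fold change of 1.74, and the sums were 32.4 to 1687 CPM and 55.0 to 12773 CPM. For fibroblasts 1 was tested, with -1.97, and the sums were 0 to 57.1 CPM and 0.88 to 17.7 CPM. Their part in the age results was not tested.

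**Figure D5:**
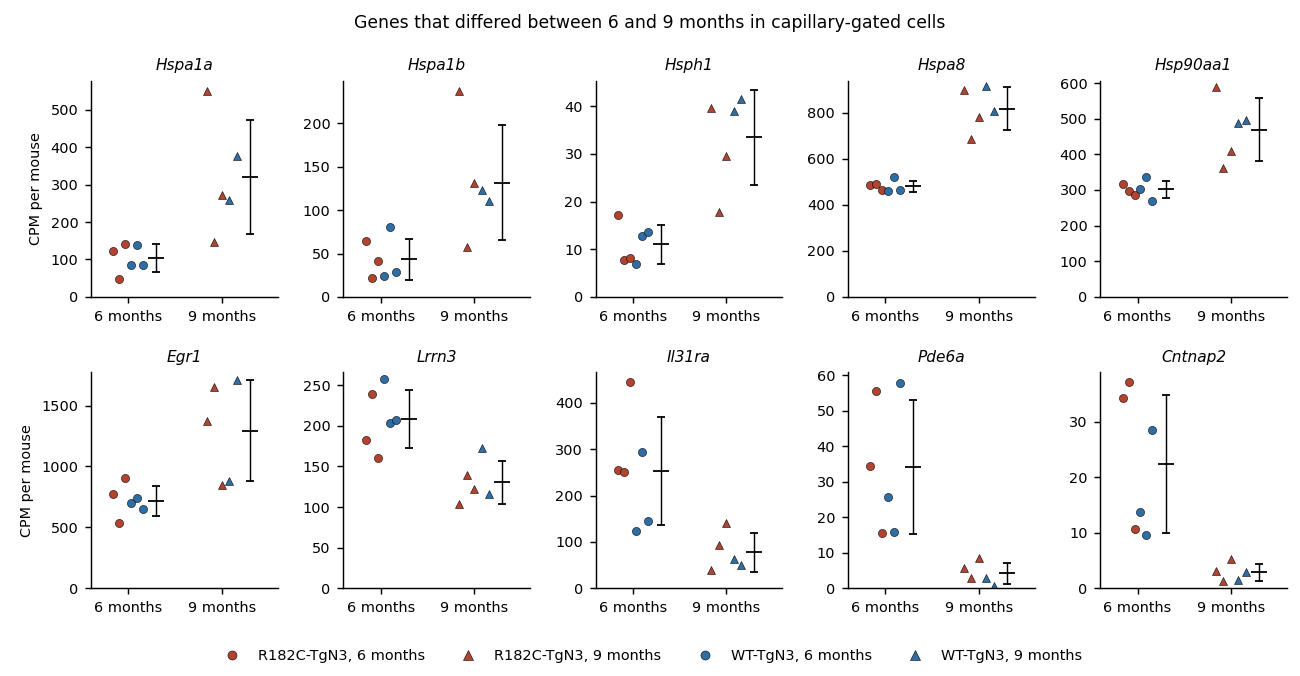
CPM per mouse (vertical axes, each from 0) of 10 genes that passed the age contrast in capillary-gated cells, at 6 months (6 mice) and 9 months (5 mice). Each symbol is a mouse, coloured by genotype, and the bars give mean ± SD; for Hspa1a, Hsph1, Hspa8, Hsp90aa1, Pde6a and Cntnap2 the ages do not overlap, and each age was run in batches of its own.

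The p-values measure the spread between mice, and for the cell type interaction that of the differences within each mouse. An exception is the edgeR fit with batch by cell type terms, whose spread was set to the common trend. Sex served as a check of the labels. With genotype as a covariate, 8 of 8841 genes passed (0.0905%), 4 (0.0452%) higher in males (Uty, Ddx3y, Eif2s3y and Kdm5d, all Y-linked) and 4 (0.0452%) higher in females (Xist, Tsix, Kdm6a and Pcdh11x), by the edgeR quasi-likelihood test. Xist stood at 0 CPM in the 4 males and at 457 to 608 CPM in the 7 females, so the sex of each library was as labelled. No autosomal gene passed between sexes, nor did any capillary marker.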

How the data were processed

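Microvessel cells of 11 mice were profiled with 10x single-cell libraries. The authors aligned reads with Cell Ranger 7.0.0 to mm10 with the human NOTCH3 sequence added and deposited UMI counts per gene and barcode, which correct for amplification copies. Counts of the gated cells were summed per mouse, since cells are not replicates. The members and gene lists were chosen with earlier results of these data known.

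Sums were tested with edgeR 4.0.16 (quasi-likelihood, TMM scaling, filterByExpr, Benjamini-Hochberg adjustment over all genes tested, threshold 0.05) in R 4.3.3, leaving out ribosomal, mitochondrial, Gm and Rik genes. DESeq2 1.42.0 and limma 3.58.1 were alternatives, as were other scalings, filters, gates and covariates and each mouse left out. Shares were compared with a two-sided exact permutation test over all splits of the mice. Scripts were tested on simulated counts. No doublet caller was run. A gate with no UMI of other cell types and a gate without the top 5% of UMIs were tried instead. Named genes were those of the rule, those past the threshold by size of change or, for genotype, the 10 with the lowest p, the extremes of the capillary profile and of cell-to-cell variance, and members of the gene lists.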

Additional observations from a re-analysis of the deposited data

Results flagged for a closer look

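In 68 groups of mice examined, 4 (5.88%) held a mouse whose gap to its nearest neighbour was large for the range of its group, and chance gives about 1 in 20. WT-TgN3 5 stood apart for the choroid plexus markers, which summed to 12773 CPM against 1687 CPM in the next control mouse. The same mouse stood apart for Ttr with 12600.5 CPM against 1642.5 CPM in the next, and for Enpp2 with 1152 CPM against 279 CPM. R182C-TgN3 4 stood apart for the smooth muscle markers, with 109 CPM against 49.0 CPM in the next R182C-TgN3 mouse.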

How the results depend on the processing

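The genotype difference in the share of capillary-gated cells, -0.14 points, turned to 1.92 points with thinning to 3000 UMIs, to 0.090 with at least 1000 genes per barcode and to 0.0065 as a share of all kept barcodes, and ran from -1.02 to 0.59 with each mouse left out. The 1 genotype call became 7 with no filter on low counts (Folr1, Gh, Prlr, Enpp2, Kcne2, Ttr and Trpm3) and 0 with all genes, batch as a covariate, batch 1 or batch 3 alone, at most 5% mitochondrial UMIs, a capillary sum of at least 5, without the top 5% of UMIs, or without WT-TgN3 1 and 5. With each mouse left out it ran from 0 to 2. Low-count filtering removed Trpm3 from 9 of these settings, so a count of 0 can mean that it was not tested. Trpm3 remained the 1 call with at least 1000 genes per barcode and with no UMI of other cell types (edgeR adjusted p = 0.014 and 0.00091). The same held with DESeq2 size factors and with sex as a covariate (edgeR adjusted p = 0.038 and 0.0048).

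The 35 age calls became 54 with DESeq2, 263 with no filter, 10 without WT-TgN3 1 and 5 and 61 in batches 1 and 3 alone, the last pair chosen after seeing the data, and ran from 8 (without R182C-TgN3 1) to 86 (without R182C-TgN3 3) with each mouse left out. Hspa8, Hsph1 and Hspa1a passed with each mouse left out (highest edgeR adjusted p 0.023, 0.023 and 0.048), while Hspa1b, Hsp90aa1, Egr1 and Lrrn3 did not in every case (highest 0.14, 0.13, 0.30 and 0.17). The genotype by age calls became 75 with no filter and ran from 0 to 5, those of genotype by cell type became 36 with batch by cell type terms and ran from 0 to 4, and the 8 sex calls became 83 with no filter and ran from 7 to 9. No gene followed across these settings changed direction. Those followed were the 10 with the lowest p for genotype and the called genes with the largest changes for age and sex. For age, Hspa8, Hsp90aa1, Egr1, Lrrn3 and Il31ra were followed too. The other genes named here were not.

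Same-numbered mice of one age did not deviate together (r from -0.10 to 0.11), and 1 of 10 mice correlated best with its own number. With the replicate number as a block, 1 gene passed for genotype, Ttr in place of Trpm3, and the difference in share was -0.58 points. The cause of these changes was not tested. Capillary-gated cells numbered as few as 141 in a mouse, which limits low genes most.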
